A study of Mus musculus with 9 samples.

Results

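The levels of 10 genes known from monocytes and macrophages, of the 27998 genes listed in the files, were followed in immune cells of the mouse retina before and after light-induced loss of photoreceptors. The members were chosen by gene symbol (Lyz2, Lyz1, Cybb, Ms4a7, Ms4a6c, Adgre1, Mrc1, Clec12a, Ccr2 and Tgfbi), and each symbol matched 1 gene. Retinas came from adult female Arr1-/- mice. These animals have no visual arrestin, the protein that shuts off activated rhodopsin, and their photoreceptors degenerate once they are kept in light. All mice were bred in darkness and carried the same deletion, so no wild-type group is part of the comparison. Cells were collected in darkness (day 0) or after 7 or 20 days of constant room light, with 3 libraries at each day. Live CD45+ CD11b+ cells were sorted for droplet sequencing of transcript 3' ends (10x Genomics, version 2), a gate that admits microglia, monocytes, macrophages, neutrophils and some lymphoid and dendritic cells. The treatment labels give the time in days whereas the sample titles write hours, and the days were taken. How the mice were divided among libraries is not stated, so a p-value here measures the spread between libraries, which may be technical.

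The files held 5022 barcode entries but 1365 different barcodes, of which 612 occurred in several libraries and 270 in all 9. Each barcode was kept only where its total of unique molecular identifiers (UMIs, 1 for each captured transcript) was highest, and these are called the assigned counts. For a barcode in several libraries, the runner-up library reached 24.1% of the highest total (median). Of 851 barcodes that passed quality control, 737 were led by myeloid markers (252, 285 and 200 at days 0, 7 and 20), and 80 of the 114 left out were led by photoreceptor markers. The myeloid cells of a library summed to between 20443 and 277725 UMIs. Day 7 replicate 3 had 17 of these cells and day 20 replicate 3 had 33, so 3 UMIs correspond to 147 and 77.4 CPM there (UMIs of a gene per 1e+06 UMIs of the library). Sag, the gene of visual arrestin, had 0 to 2 UMIs per library over all barcodes.

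Monocytes leave the blood through the receptor Ccr2 and, once in a tissue, become macrophages that lose some monocyte transcripts and take up others, whereas microglia are the long-lived resident macrophages of brain and retina. The genes followed here encode bactericidal enzymes, membrane proteins and receptors by which these cells sense, bind and digest material. Several of them are made by microglia as well, above all after injury, so that no single one defines where a cell came from. The label of a monocyte and macrophage lineage held only in part for these libraries. At day 0, where Ccr2 had 0 UMIs, Lyz2 was found in 151 of 252 cells and Adgre1 in 47, and 121 and 40 of these also held a UMI of the microglial genes P2ry12, Siglech or Tmem119. Such genes of microglia were found in 187 of the 252 cells. The 10 genes are therefore called the listed genes.

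Positions are those of GENCODE M21 on GRCm38 (mm10, the build in the submitters' processing notes), and 98.7% of the identifiers in the files are in that annotation. All 10 are protein coding. Lyz2 (ENSMUSG00000069516, chr10:117277331-117282321, minus strand) and Lyz1 (ENSMUSG00000069515, chr10:117287797-117292868, minus strand) are neighbours with 5475 bases between them, and both encode lysozyme C. Cybb (ENSMUSG00000015340, chrX:9435252-9487771, minus strand) lies on the X chromosome. Ms4a7 (ENSMUSG00000024672, chr19:11321039-11336146, minus strand) and Ms4a6c (ENSMUSG00000079419, chr19:11469366-11482192, plus strand) lie 133 kb apart in the MS4A gene cluster. Adgre1 (ENSMUSG00000004730) lies at chr17:57358691-57483527, Mrc1 (ENSMUSG00000026712) at chr2:14229392-14332057, Clec12a (ENSMUSG00000053063) at chr6:129342691-129365303, Ccr2 (ENSMUSG00000049103) at chr9:124101950-124113557 and Tgfbi (ENSMUSG00000035493) at chr13:56609523-56639562, each on the plus strand.

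The lysozyme pair is shown first because its 2 genes are near copies, and reads from one may be lost or counted to the other. The stretch shown is the 100 bases directly before each RefSeq transcription start (GRCm38.p6, minus strand of chromosome 10, 5' to 3'). Capitals mark the bases that differ, and 92 bases are identical. Lyz2 lies at chr10:117282273-117282372 and Lyz1 at chr10:117292869-117292968. The Lyz2 stretch runs into the GENCODE gene, whose 5' end is at 117282321, so the RefSeq start of Lyz2 lies inside that gene. Over the whole windows (250 bases before to 50 after the RefSeq start), 201 of 300 bases are identical when compared position by position.
Lyz2: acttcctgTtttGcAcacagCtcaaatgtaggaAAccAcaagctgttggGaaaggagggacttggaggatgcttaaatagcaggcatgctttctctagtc
Lyz1: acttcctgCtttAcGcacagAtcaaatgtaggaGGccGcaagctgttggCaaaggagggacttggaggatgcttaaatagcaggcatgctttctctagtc
All 8 differences shown lie before the RefSeq transcription start. In the 50 bases after it, which are not printed, 1 base differs. The last listed annotated transcripts of the genes were 96.0% identical over aligned bases. Over their last 400 bases, the end that this chemistry reads, they were 97.2% identical. Of the 50-base windows in that end of Lyz1, 19.1% also occur in Lyz2. Values of Lyz1 and Lyz2 are therefore uncertain towards each other.

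RefSeq promoter windows (250 bases before to 50 after a start) were matched for 9 of the 10 listed genes, with 10 windows in all because Ms4a7 has 2. GAGGAA, the core bound by the myeloid factor PU.1, was in 4 of the 10 windows (Clec12a, Cybb, Mrc1 and Ms4a7) on either strand, and in 28.3% of all 32851 windows. A spaced repeat of GAAA, a motif of interferon regulatory factors, was in those of Cybb and Tgfbi and in 3.44% of all windows. TTGCGCAA, the palindrome of C/EBP factors, was in that of Clec12a and in 0.183% of all windows. The Clec12a stretch (chr6:129350084-129350208, plus strand, GRCm38.p6) is printed because it holds both the PU.1 core and the C/EBP palindrome. It belongs to a RefSeq start that lies inside the GENCODE gene.
Clec12a: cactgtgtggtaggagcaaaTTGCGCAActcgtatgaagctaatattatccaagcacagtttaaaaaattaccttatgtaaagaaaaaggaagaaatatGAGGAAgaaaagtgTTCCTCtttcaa
Capitals mark TTGCGCAA and 2 matches of GAGGAA, the latter of them on the opposite strand. A match is a run of letters and says nothing of binding in these cells.

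At day 7 the cells held more transcripts of Lyz2, Ms4a7, Ms4a6c and Cybb than at day 0, and in each of these genes the lowest day 7 library lay above the highest day 0 library. Tgfbi passed the test as well, with overlapping libraries, and Adgre1 did not pass it. At day 20, Ms4a7, Cybb and Lyz2 were still higher than at day 0, with the Lyz2 call less stable across settings. Of the 10 listed genes, 6 had enough counts to be tested across libraries (edgeR's quasi-likelihood test on summed counts, 1446 genes, Benjamini-Hochberg adjustment at 0.05). Since genes that passed the count filter tend to be those that are high at some day, the 6 do not stand for all 10. The list was also chosen with earlier results of these data known. The values of all tested genes beside it are therefore a description and no test of the list. At day 7, 5 of the 6 were called higher than at day 0, where 134 genes or 9.27% of all tested genes were called higher and 222 or 15.4% lower. With library totals in place of TMM scaling that split was 68 higher and 270 lower, and the median log2 change of all genes was −0.26 in place of −0.05. At day 20 compared with day 0, 3 of the 6 were called higher (1.11% of all tested genes were called higher), and at day 20 compared with day 7, 1 of the 6 was called lower (0.968% of all tested genes were called lower). The median log2 change of the 6 was 2.64, 1.37 and −1.14 in the 3 comparisons, beside −0.05, 0.01 and 0.05 for all tested genes. All 3 later libraries lay above the day 0 libraries for 5 of the 6 at day 7 and for 3 at day 20, as they did for 12.3% and 10.7% of tested genes. From day 7 to day 20, 3 of the 6 (Ms4a7, Ms4a6c and Cybb) lay lower in all 3 libraries, as did 5.6% of tested genes.

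**Figure D1:**
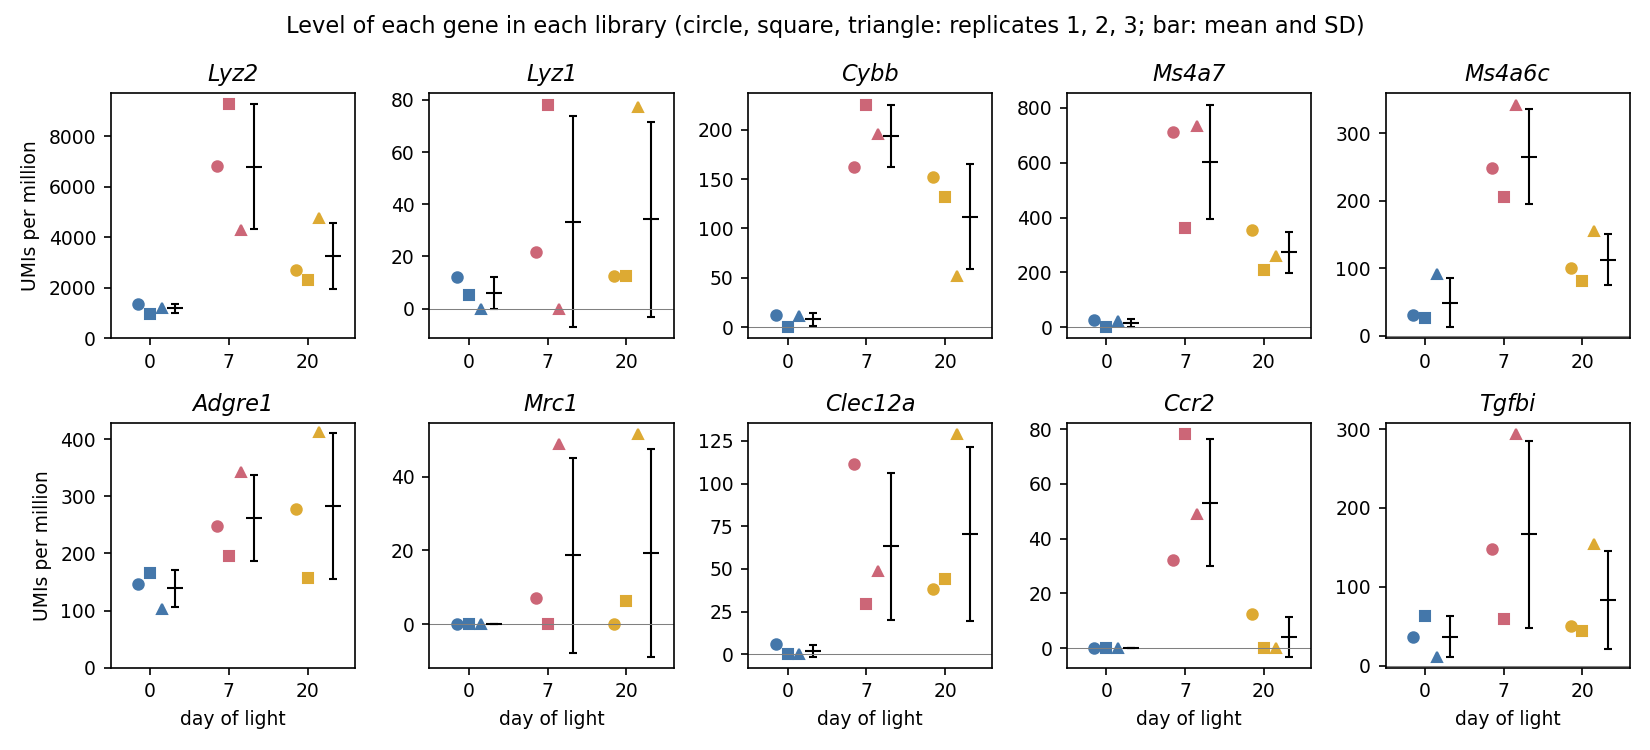
Level of each listed gene in each library, in CPM of myeloid cells (y axis, separate scale per gene, linear), against the day of light (x axis). Circles, squares and triangles are replicates 1, 2 and 3, and the black bar is the mean with its SD (n = 3), which can reach below 0 for sparse genes. The 3 Ms4a7 values at day 0 are at most 24.5 CPM and those at day 7 between 362 and 734 CPM.

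Lyz2 encodes lysozyme C, which cuts bacterial cell walls and is stored by monocytes, macrophages and neutrophils. Its level was 1356, 979 and 1217 CPM in day 0 replicates 1 to 3, then 6802, 9273 and 4305 CPM at day 7 and 2721, 2324 and 4744 CPM at day 20. Every library after light was above every day 0 library, while days 7 and 20 overlapped through replicate 3 of each. Lyz2 rose by 2.66 on the log2 scale at day 7 (standard error 0.33, edgeR adjusted p = 4.72e-05) and by 1.48 at day 20 (0.32, edgeR adjusted p = 0.0197), and it fell by 1.18 from day 7 to day 20 (0.32, edgeR adjusted p = 0.0441). The day 7 rise passed in all 9 fits that left out 1 library. The day 20 rise passed in 5 of these 9 fits, being lost without any of the 3 day 0 libraries or day 20 replicate 3, and the fall from day 7 to day 20 passed in 2 of 9, without day 7 replicate 3 or without day 20 replicate 3. Across 14 other settings of barcodes, scaling, filter and test, the day 20 rise of Lyz2 passed in 7. The day 20 rises of Ms4a7 and Cybb passed in 11 of 13 such settings each. In day 7 replicate 2, 1 cell held 175 of the 949 Lyz2 UMIs.

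Lyz1, the neighbouring lysozyme gene, is known from Paneth cells of the gut and is low in most myeloid cells. Its counts were 2, 1 and 0 UMIs in the day 0 libraries, 6, 8 and 0 at day 7 and 1, 2 and 3 at day 20. The libraries of day 0 and day 7 overlapped, and the pooled ratio of day 7 to day 0 was 5.16 with a 95% counting interval of 1.44 to 28.0. Each of the 15 cells with Lyz1 after light also held Lyz2, which was in 396 of all 485 cells after light. The 15 were deeper, with a median of 1158 UMIs against 887.5 in cells without Lyz1.

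Cybb encodes the catalytic subunit of the phagocyte NADPH oxidase, which makes superoxide against engulfed microbes. It measured 12.3, 0 and 11.4 CPM at day 0, 162, 225 and 196 CPM at day 7, and 152, 132 and 51.6 CPM at day 20. Every library after light exceeded the day 0 libraries. Pooled over libraries it had 72 UMIs at day 7 against 3 at day 0, a ratio of 26.5 (95% counting interval 8.73 to 132), and 35 at day 20, a ratio of 18.7 (5.89 to 94.9). The log2 changes were 4.72 at day 7 (standard error 0.63, edgeR adjusted p = 8.56e-05) and 3.99 at day 20 (0.68, edgeR adjusted p = 0.00329), and both passed in all 9 fits that left out 1 library. Single cells weighed heavily here: 1 cell held 15 of the 21 UMIs of day 20 replicate 2, and 1 cell held all 4 UMIs of day 7 replicate 3. With the barcodes in the top 5% of UMIs of their library left out, the changes were 3.96 and 3.92 (edgeR adjusted p = 0.00164 and 0.00638).

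Ms4a7 encodes a membrane protein of the MS4A family that is a common marker of macrophages outside the resident microglia. Its level was 24.5, 0 and 22.8 CPM at day 0, 713, 362 and 734 CPM at day 7 and 354, 208 and 258 CPM at day 20. The 3 days did not overlap, with day 20 between the other 2. Counts rose from 6 UMIs to 250 at day 7, a pooled ratio of 46.1 (20.9 to 127), and to 71 at day 20, a ratio of 18.9 (8.29 to 53.4). These were log2 increases of 5.44 (standard error 0.57, edgeR adjusted p = 1.84e-05) and 4.21 (0.62, edgeR adjusted p = 0.00208), and they passed in all 9 fits that left out 1 library. The difference of −1.22 between day 20 and day 7 (0.42, edgeR adjusted p = 0.125) did not pass. A difference in the number of cells that carry a transcript and one in transcripts per cell cannot be told apart in summed counts, and the shares of cells are given further on.

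Ms4a6c, of the same family and known from monocytes, measured 30.7, 26.0 and 91.0 CPM at day 0, 248, 205 and 342 CPM at day 7 and 101, 81.9 and 155 CPM at day 20. Day 7 stood above both other days, whereas days 0 and 20 overlapped. It rose by 2.63 at day 7 (standard error 0.47, edgeR adjusted p = 0.000826), in all 9 fits that left out 1 library, and its value at day 20 was 1.27 above day 0 (0.53, edgeR adjusted p = 0.250). Other genes of the cluster had too few counts for the test. Over the 3 days, Ms4a4c had 5, 35 and 12 UMIs, Ms4a6b 9, 31 and 11, Ms4a6d 21, 33 and 23 and Ms4a4a 0, 6 and 3. These 4 genes, named for their position, lie with Ms4a7 and Ms4a6c within 284 kb of chromosome 19.

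Adgre1 encodes F4/80, the adhesion receptor by which mouse macrophages, microglia included, are commonly stained. It measured 147, 167 and 102 CPM at day 0, 248, 195 and 342 CPM at day 7 and 278, 157 and 413 CPM at day 20. The day 7 libraries lay above day 0, and day 20 overlapped both. The differences from day 0 were 0.90 at day 7 (standard error 0.39, edgeR adjusted p = 0.102) and 0.89 at day 20 (0.39, edgeR adjusted p = 0.275), and they passed in 0 of 9 fits that left out 1 library. Mrc1, the mannose receptor CD206 of perivascular and repair macrophages, had 0 UMIs in each day 0 library, 2, 0 and 1 at day 7 and 0, 1 and 2 at day 20. Those counts are at the floor of 3 per group, so no ratio is given for Mrc1.

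Clec12a encodes an inhibitory C-type lectin receptor of monocytes, granulocytes and dendritic cells. Its counts were 1, 0 and 0 UMIs at day 0, 31, 3 and 1 at day 7 and 3, 7 and 5 at day 20. Every library after light had a higher level than the day 0 libraries. The pooled ratio to day 0 was 38.7 at day 7 (95% counting interval 6.51 to 1572) and 24.0 at day 20 (3.70 to 1011). Clec12a fell under the count filter. When every gene with a UMI was tested, edgeR called it higher at day 7 (adjusted p = 0.000194) and at day 20 (adjusted p = 0.0300). In fits that left out 1 library it entered the test in 7. It passed in 6 of these at day 7 (lost without day 0 replicate 2). At day 20 it passed in 0 of 7, with an edgeR adjusted p between 0.0700 and 0.358. It could not be tested without day 20 replicate 3 or without day 7 replicate 1, which held 31 of its 35 day 7 UMIs. The day 7 call was thus not checked without the library that held most of its counts.

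Ccr2, the receptor for the chemokine CCL2 that classical monocytes follow out of the marrow and into injured tissue, had most of its counts at day 7. There were 0 UMIs in each of the 3 day 0 libraries, 9, 8 and 1 at day 7 and 1, 0 and 0 at day 20. The day 7 libraries, at 32.4, 78.2 and 48.9 CPM, lay above those of both other days. The pooled day 7 level was at least 6.64-fold higher than at day 0, where 0 counts allow up to 3 over the group, and 12.4 times that of day 20, with a counting interval of 1.96 to 518. With every gene tested, edgeR called Ccr2 higher at day 7 than at day 0 (adjusted p = 0.00261), but not between day 20 and day 7 (adjusted p = 0.376). In that setting 96 of 13015 genes were called higher at day 7. Ccr2 fell under the count filter in every other fit, so its call was not checked by leaving out a library.

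Tgfbi encodes a matrix protein induced by TGF-beta that monocytes and macrophages secrete. It measured 36.8, 62.5 and 11.4 CPM at day 0, 148, 58.6 and 293 CPM at day 7 and 50.6, 44.1 and 155 CPM at day 20, and the 3 days overlapped. Tgfbi rose by 1.79 at day 7 (standard error 0.62, edgeR adjusted p = 0.0464), and at day 20 its value was 0.69 above day 0 (edgeR adjusted p = 0.666). The day 7 call was the least stable of the 5. It passed in 3 of 9 fits that left out 1 library (without day 7 replicate 2, day 20 replicate 1 or day 20 replicate 3) and in 0 of 11 other settings.

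**Figure D2:**
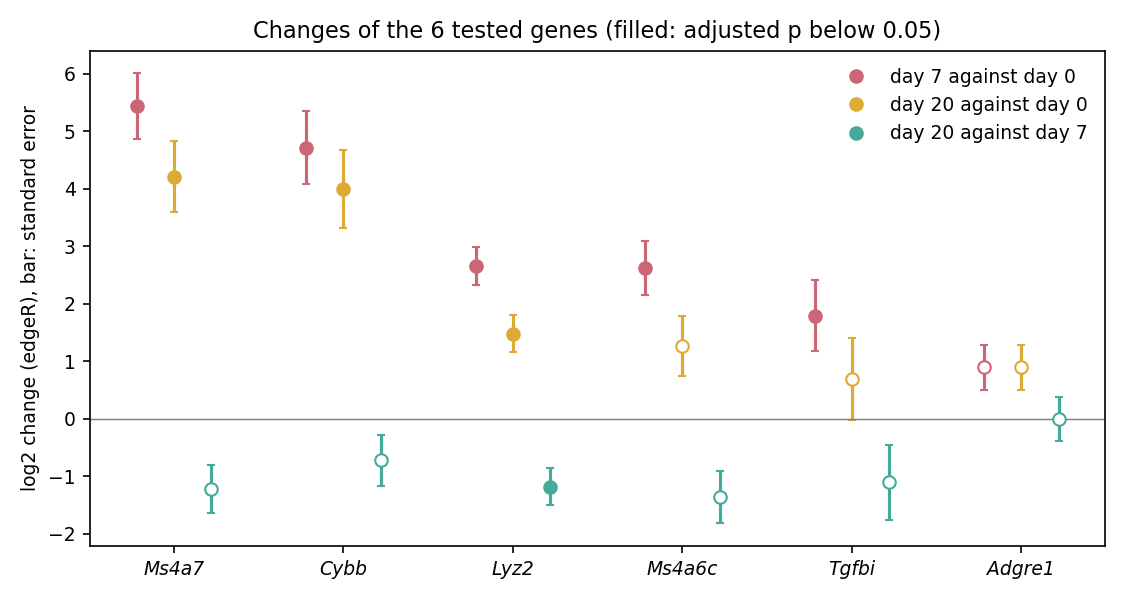
Log2 change of the 6 tested genes in the 3 comparisons of days (y axis, edgeR on assigned counts, bars are standard errors). Filled points have an adjusted p below 0.05 over all 1446 genes, which holds for 5 genes at day 7, 3 at day 20 and 1 between day 20 and day 7.

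The deposited libraries, in which each barcode counts in every library that lists it, gave smaller differences. There the log2 change at day 7 was 1.22 for Lyz2 (edgeR adjusted p = 0.0160), 1.83 for Ms4a7 (adjusted p = 0.00567), 1.35 for Ms4a6c (adjusted p = 0.0225), 0.99 for Cybb (adjusted p = 0.103), 0.37 for Tgfbi (adjusted p = 0.492) and 0.41 for Adgre1 (adjusted p = 0.273). At day 20 compared with day 0, edgeR called 0 of these 6 genes in the deposited counts (0 of all 2670 genes, with 206 at an unadjusted p under 0.05, 3 of them listed genes), and DESeq2 called 4 genes, 0 of them listed. Much of the deposited day 0 signal sat on barcodes that were highest at a later day, to a share that differed between genes. Of 98 Ms4a7 UMIs in the deposited day 0 libraries, 6 were in the library where their barcode was highest and 92 on barcodes that were highest at day 7 or 20. The corresponding counts were 54, 3 and 51 for Cybb, 10, 1 and 9 for Clec12a, and 5, 0 and 5 for Ccr2. For Adgre1, 45 of 128 UMIs lay on barcodes of the later days. The results given here thus rest on assigning each barcode to its highest library. For Lyz2, the only listed gene with enough counts when barcodes found in 1 library were used alone, edgeR still called the day 7 rise.

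The share of cells with a transcript was compared at an equal depth of 500 UMIs per cell, as the share expected when each cell is drawn down to that number. Of the myeloid cells of days 0, 7 and 20, respectively 207, 253 and 150 had 500 UMIs or more, and 45, 32 and 50 were too shallow. Lyz2 was found in 39.6%, 37.9% and 53.5% of cells in the day 0 libraries, in 79.5%, 78.0% and 80.0% at day 7 and in 62.5%, 58.5% and 75.7% at day 20. Its mean share was 43.7% ± 8.56, 79.1% ± 1.02 and 65.6% ± 8.99 (SD, n = 3), and the 3 days did not overlap. Without the draw-down the means were 61.7%, 83.7% and 74.5%.

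Ms4a7 was found in 1.69%, 0% and 3.23% of cells at day 0, in 23.6%, 14.7% and 20.4% at day 7 and in 17.1%, 8.83% and 10.3% at day 20. Every library after light had a higher share than every day 0 library. Mean shares of Ms4a6c were 2.96% ± 1.84, 11.4% ± 4.21 and 4.17% ± 0.865 over the 3 days (SD, n = 3). For Cybb they were 0.985% ± 0.961, 5.95% ± 2.40 and 3.68% ± 2.78, and for Adgre1 7.08% ± 1.53, 14.7% ± 5.92 and 12.2% ± 5.18 (SD, n = 3). Clec12a reached 2.04% ± 1.08 at day 7 and 5.37% ± 4.0 at day 20 (SD, n = 3), and Ccr2 1.41% ± 0.606 at day 7 (SD, n = 3). At least 1 listed gene other than Lyz2 was found in 13.3% ± 1.47, 41.1% ± 6.50 and 32.7% ± 10.8 of cells (SD, n = 3). These shares were not put to a test, and with 3 libraries against 3 an exact permutation test cannot give a p below 0.1.

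Barcodes led by photoreceptor markers were taken as a measure of background. They came from the same CD45+ CD11b+ sort, and whether they held myeloid RNA of their own was not tested. At day 0, 69 such barcodes with a median of 1110 UMIs had Lyz2 in 4.38% and Ms4a6c in 0.777% at equal depth (58 used), against 42.0% and 2.58% of the myeloid cells with a median of 949.5 UMIs. After light, 11 such barcodes with a median of 1419 UMIs had Lyz2 in 31.6% and Ms4a7 and Ms4a6c in 4.33% each (8 used), against 73.0%, 17.5% and 8.01% of myeloid cells with a median of 901 UMIs. The values of Ms4a7 and Ms4a6c in these 11 barcodes rest on 1 UMI each, so the day 20 share of Ms4a6c, at 4.17%, could not be told apart from background at this depth. Cybb, Tgfbi, Adgre1, Clec12a, Ccr2, Mrc1 and Lyz1 were in 0 of these 11 barcodes, which allows a share of up to 27.3%, counting error only. The shares of these genes at day 7 (such as Cybb at 5.95% and Tgfbi at 5.07%) and at day 20 (3.68% and 3.76%) lie under that bound. The Ms4a7 shares, 19.5% at day 7 and 12.1% at day 20, lie under it as well, and 1 UMI allows no smaller share than 0 UMIs. These 11 barcodes thus cannot set the Ms4a7 shares apart from background either. The bound counts all 11 barcodes without the draw-down, whereas these shares are at equal depth. Among all 35 barcodes left out as not myeloid after light (22 used), Ms4a6c was in 1.96% and Ms4a7 in 4.90% at equal depth. Those values rest on 2 and 3 UMIs.

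**Figure D3:**
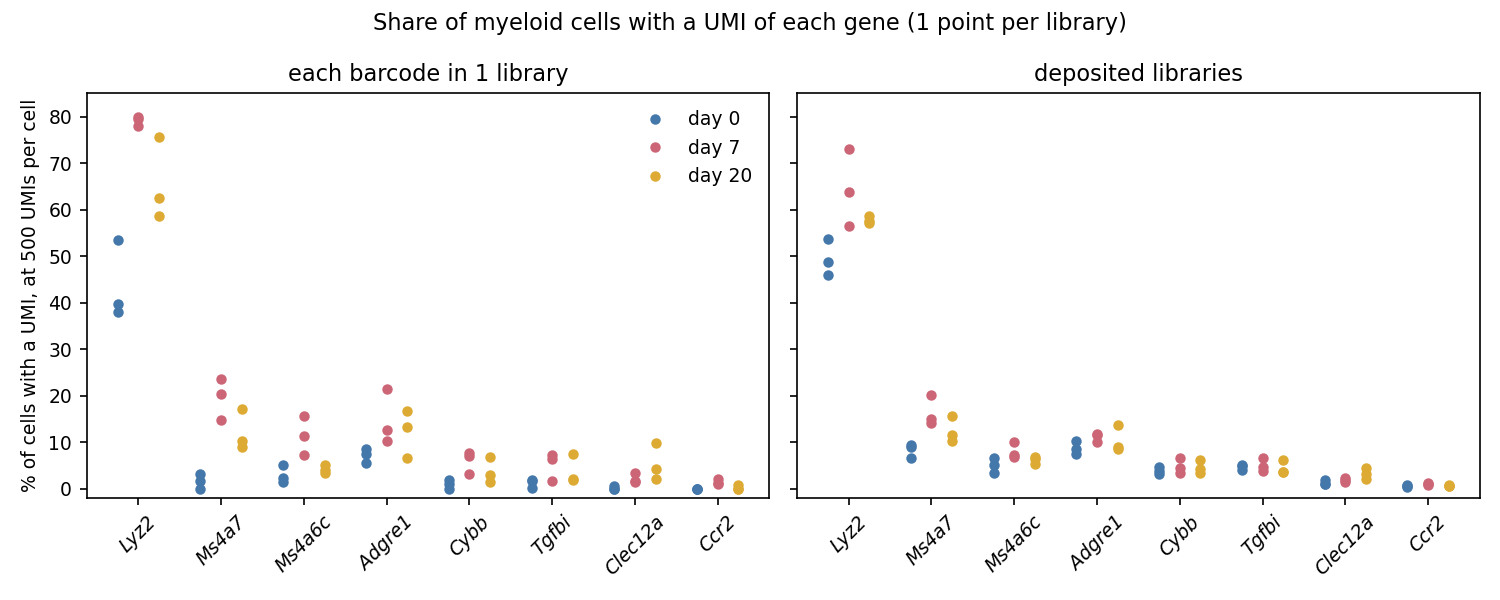
Share of myeloid cells with a UMI of 8 listed genes at 500 UMIs per cell (y axis, percent), 1 point per library, with days in colour. In the left panel each barcode counts in its highest library and the Ms4a7 share at day 0 is at most 3.23%, whereas in the right panel, where barcodes count in each deposited library, its mean at day 0 is 8.29%.

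More listed genes were found per cell after light. This number rises whenever the shares of the single genes rise, so it is no separate result. Whether the listed genes share cells more often than their single shares imply was not tested. In 1 random draw of each cell down to 500 UMIs, the mean number of listed genes per cell went from 0.548 ± 0.0823 (day 0) to 1.16 ± 0.272 (day 20) and 1.41 ± 0.0693 (day 7) (SD, n = 3). At least 2 of them were found in 10.96%, 4.55% and 4.35% of cells in the day 0 libraries, in 44.2%, 37.7% and 41.7% at day 7 and in 25%, 17.1% and 46.2% at day 20. Both later days lay above day 0 in each library. The highest number in 1 cell was 3, 5 and 6 over the 3 days. At day 0, 113 of 207 cells held none of the listed genes, compared with 36 of 253 at day 7 and 40 of 150 at day 20.

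**Figure D4:**
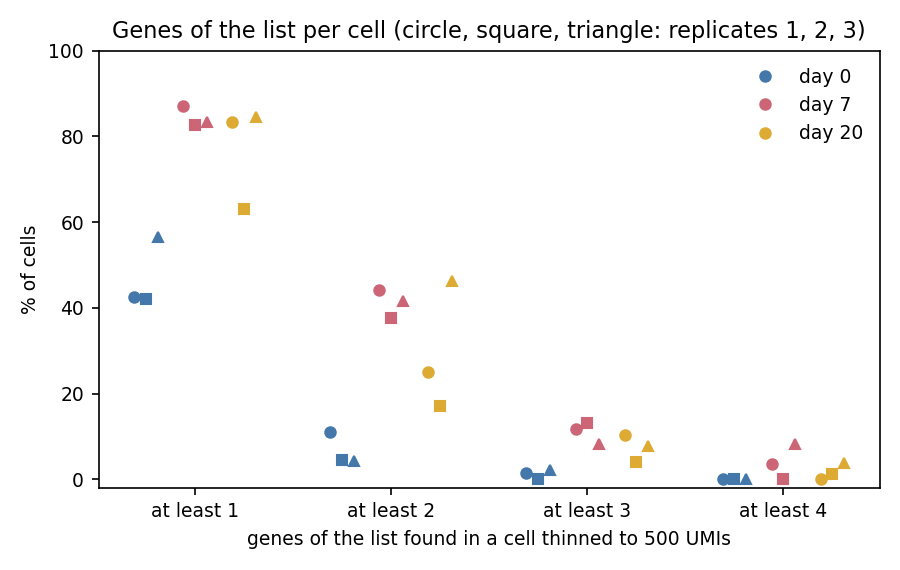
Share of cells (y axis, percent) with at least 1, 2, 3 or 4 of the 10 listed genes (x axis) after each cell was drawn down to 500 UMIs, 1 point per library. The share with at least 2 is between 4.35% and 10.96% at day 0 and between 37.7% and 44.2% at day 7.

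Cells with a listed gene after light were then compared with the other day 7 and day 20 cells for microglial genes and for H2-Aa, a chain of the class II molecules that present antigen to T cells. Without the draw-down, 44 of 137 cells with Ms4a7 (32.1%) also held a UMI of P2ry12, Siglech or Tmem119, and 92 (67.2%) held H2-Aa. At equal depth, the microglial genes were found in 13.2% of the cells with Ms4a7 and in 23.6% of those without it, and H2-Aa in 47.0% and 23.5%. In the 4 libraries with at least 10 cells with Ms4a7, H2-Aa was found in 47.3% against 31.7% of cells (day 7 replicate 1), 29.4% against 25.2% (day 7 replicate 2), 71.6% against 20.5% (day 20 replicate 1) and 51.5% against 12.9% (day 20 replicate 2). The share was thus higher in cells with Ms4a7 in 4 of 4 libraries. The microglial genes were found in 14.2% against 14.3%, 8.38% against 16.0%, 13.5% against 25.1% and 16.1% against 38.6% of cells in the same order, lower in 4 of 4 but barely so in day 7 replicate 1. Cells with Ms4a7 were deeper, with a median of 1434 UMIs against 783.5, and nearly all of them (135 of 137) held the complement gene C1qa, which microglia and macrophages share.

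For the other genes the values are given within days, since the share of cells with a microglial gene differed between day 7 (75 of 285) and day 20 (80 of 200). At equal depth, microglial genes were in 19.9% of the day 7 cells with Adgre1 and in 11.8% of those without it, and in 39.5% and 27.8% at day 20. For Ms4a7 the corresponding values were 12.8% and 14.8% at day 7 and 14.4% and 34.7% at day 20. The microglial share was thus higher in cells with Adgre1 and lower in cells with Ms4a7 at both days. For Tgfbi it was 9.65% and 14.8% at day 7 and 18.8% and 31.7% at day 20, and for Ms4a6c 14.4% and 14.0%, then 29.6% and 30.9%. For Cybb the order turned, with 10.8% and 14.6% at day 7 and 43.1% and 29.7% at day 20, where 12 cells with Cybb were used. At day 0 all 15 cells with Tgfbi held a microglial gene, with a median of 5259 UMIs per cell against 891 in the cells without Tgfbi. These are descriptions of cells that share libraries, with no test.

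Cells with Ccr2 were few. Of the 12 after light, 11 came from day 7 (7, 3 and 1 in replicates 1 to 3) and 1 from day 20 replicate 1. Of the 12, 11 held Lyz2, 8 Ms4a7, 6 Tgfbi and 5 Cybb, against 396, 137, 51 and 52 of all 485 cells after light. The 12 were deeper, with a median of 1738 UMIs against 882 in cells without Ccr2. Further, 11 of the 12 held H2-Aa and 12 C1qa, while 2 held P2ry12, Siglech or Tmem119. All 12 held UMIs of the wider list of 15 homeostatic microglial genes, between 2 and 26 per cell. At equal depth, that list was found in 73.2% of the 11 day 7 cells with Ccr2 and in 81.6% of those without it. Its pooled level in these cells was 29.0 against 55.9 UMIs per 10000. The cell with the most Ccr2, in day 7 replicate 2, had 4 UMIs of it beside 130 of Lyz2 and 9 of Cybb among 4665. Of the pairs, Ms4a7 was found in 46 of 81 cells with Ms4a6c (56.8%) and in 31 of 51 with Tgfbi (60.8%). With Adgre1 it was in 52 of 112 (46.4%), and over all 485 cells after light in 28.2%. These shares are not at equal depth. Cells with Ms4a6c, Tgfbi or Adgre1 had medians of 1476, 1477 and 1360.5 UMIs, against 811, 869 and 807 in cells without the gene.

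**Figure D5:**
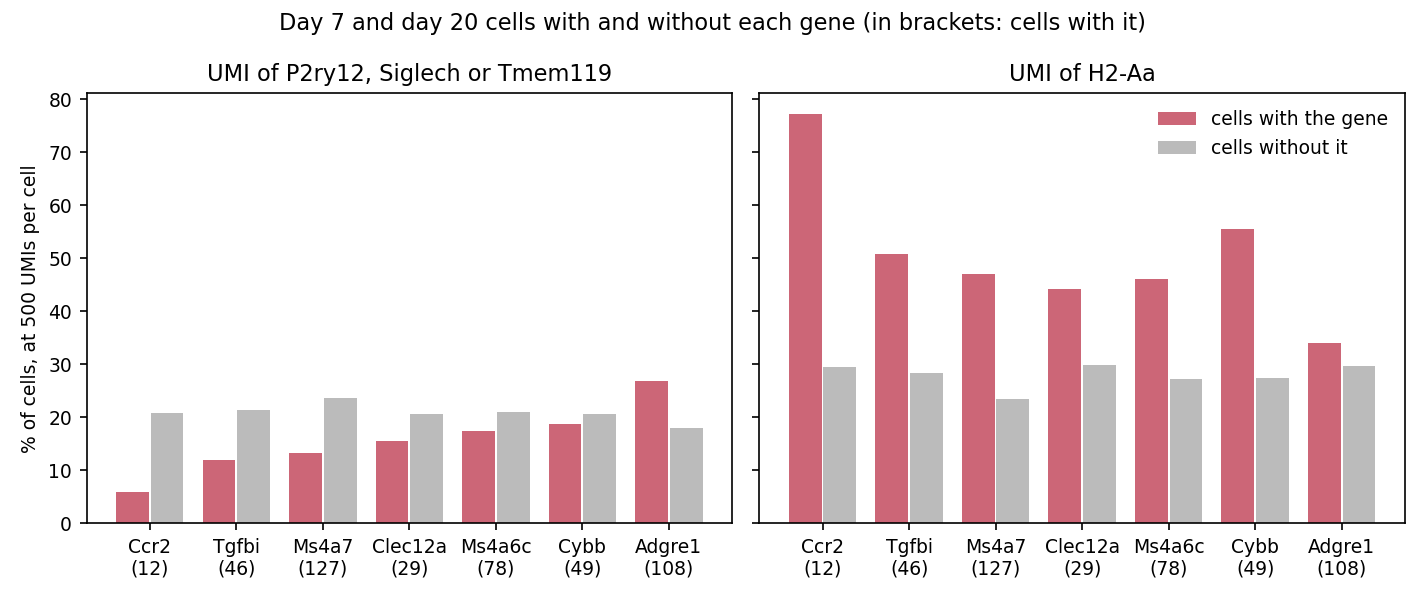
Share of day 7 and day 20 cells (y axis, percent, at 500 UMIs per cell) with a microglial UMI of P2ry12, Siglech or Tmem119 (left) or of H2-Aa (right), among cells with each listed gene (red) and without it (grey). Both days are pooled, although their microglial shares differ. The number of cells with the gene and enough UMIs stands in brackets. The microglial share is 26.8% against 17.9% for Adgre1 and 13.2% against 23.6% for Ms4a7. H2-Aa is more frequent in the cells with each of the 7 genes shown. Of the genes not shown, Lyz2 has H2-Aa in 33.0% of cells with it against 17.3% without. Lyz1 and Mrc1 go the other way, with 20.3% against 31.3% (15 cells with Lyz1 used) and 27.2% against 30.9% (4 cells with Mrc1 used).

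The genes most like the listed ones across cells were sought among 2456 other genes found in at least 5% of the 737 cells, by Pearson's r with the summed UMIs of the listed genes, both as log2 of UMIs per 10000 plus 1. Lyz2 made up 80.9% of that sum. The 10 highest were Apoe (r = 0.58), Cd74 (0.41), H2-D1 (0.38), H2-Ab1 (0.35), H2-Aa (0.33), Ctsb (0.31), Cd63 (0.31), H2-Eb1 (0.31), Bst2 (0.29) and Wfdc17 (0.28). Apoe is a lipid carrier, Ctsb and Cd63 belong to lysosomes, and Cd74 and the H2 genes serve antigen presentation. Within days, r of Apoe was 0.26, 0.57 and 0.62 over days 0, 7 and 20, and that of Cd74 was 0.09, 0.27 and 0.30. For H2-D1 it was 0.24, 0.35 and 0.38, and for H2-Ab1 0.16, 0.19 and 0.24. For H2-Aa it was 0.13, 0.23 and 0.19, and for H2-Eb1 0.16, 0.20 and 0.19. The r over all cells also takes in differences between days. The cells share libraries and depth, so these values are a description, and those near or below 0.3 are weak.

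A list of 40 other monocyte and macrophage genes moved in both directions. Of its 12 tested genes, 4 were called higher and 3 lower at day 7 (median log2 change −0.00071, all tested genes −0.05), 1 higher at day 20 and 1 lower from day 7 to day 20. At day 7, edgeR called higher Gpnmb, a glycoprotein of phagocytes (4.44, adjusted p = 0.000256), Ifitm3, an interferon-induced antiviral protein (3.25, adjusted p = 3.23e-05), Lst1 (1.51, adjusted p = 0.0136) and Cyba, the partner of Cybb (0.71, adjusted p = 0.0489). Among those it called lower were the chemokine Ccl9 (−2.03, adjusted p = 0.0323) and Ncf1, a cytosolic subunit of the oxidase (−1.35, adjusted p = 0.0137). Ifitm3 was also higher at day 20 than at day 0 (2.41, edgeR adjusted p = 0.00208), and Gpnmb fell by 3.01 between day 7 and day 20 (edgeR adjusted p = 0.0167).

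Some genes of the list had few counts or none. Ly6c2, a marker of classical monocytes, had 2, 7 and 0 UMIs over the 3 days. Plac8, which monocytes also express, had 3, 46 and 2, and 41 of the 46 were in day 7 replicate 1. Vcan and Cd163 had 0 in all libraries. Of a list of 5 other genes of the NADPH oxidase complex, all tested, 1 was called higher and 1 lower at day 7, the Cyba and Ncf1 named above. At day 20 edgeR called 0 of these 5 compared with day 0 (adjusted p for Cyba 0.641, for Ncf1 0.433).

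Markers of other cells moved with the days, and their part in the levels of the listed genes was not tested. Of 15 homeostatic microglial genes, 14 were tested, and 13 were lower and 1 (Fcrls, 2.54, named after its value was seen) higher at day 7 than at day 0, with P2ry12 at −2.68 (edgeR adjusted p = 4.72e-05) and Siglech at −2.97 (adjusted p = 0.000179). Their summed level was 18125 to 20751, 5228 to 6408 and 11526 to 13577 CPM over the 3 days. The 4 class II genes were each called higher at both days, with H2-Aa at 5.02 and 3.98 (edgeR adjusted p = 5.06e-06 and 0.000178), and their sum went from 620 to 2196 CPM at day 0 to between 10065 and 40405 at day 7 and between 5932 and 14717 at day 20. Lymphoid markers (10 genes measured, all under the count filter, Cd79a at 0) summed to 12.3 to 57.3 CPM at day 0, 78.2 to 636 at day 7 and 25.8 to 214 at day 20, so each day 7 library lay above each day 0 library. Neutrophil markers (9 genes) summed to 91.0 to 156, 19.5 to 245 and 51.6 to 157 CPM, and their defining genes Ly6g, Camp and Ngp had 0 UMIs in every library. Dendritic cell markers (9 genes) summed to 313 to 580, 119 to 518 and 129 to 253 CPM, with Ccl22 and Cd209a at 0. At day 0 that sum was Fscn1 alone, which edgeR called lower at day 7 (−3.02, adjusted p = 0.000163). The 8 other dendritic genes had 0 UMIs in each day 0 library and 1, 0 and 1 at day 20. At day 7 they had 18, 48 and 7 UMIs (64.8, 469 and 342 CPM), from 6, 3 and 1 of the genes. Whether these UMIs lay in cells with a listed gene was not tested. Photoreceptor markers (15 genes) summed to 1062 to 6702 CPM at day 0 and to 342 to 1174 and 208 to 1152 CPM after light, and 6 of 6 tested were lower at day 7.

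Lists of other retinal cells, vessels, lens and red cells, used to leave out barcodes, summed to at most 2299, 330.0, 1235 and 335 CPM in any library of myeloid cells. Lens markers differed between libraries of a day, with 97.8 to 1235 CPM at day 7. Of the 13 tested pan-myeloid markers, which include C1qa, Ctss and Tyrobp, 1 (Csf1r, also on the microglial list) was called lower at day 7, and their sum was 42389 to 44668, 28255 to 39622 and 43569 to 48269 CPM over the 3 days.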

How the data were processed

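Single-cell RNA was measured in 9 libraries of sorted CD45+ CD11b+ retinal cells, 3 at each of days 0, 7 and 20. Per the labels and methods, the authors aligned reads to mm10 and counted UMIs with Cell Ranger (version not given in the sources used here). The deposited values are raw UMI counts per gene and barcode, and 0 columns were left unmapped. The 10 genes, the other gene lists and the tests were chosen with earlier results of these data known. Barcodes were kept in the library of their highest UMI total (no ties), with at least 200 genes and under 10% mitochondrial UMIs, and as myeloid when pan-myeloid UMIs exceeded those of each of the photoreceptor, other retina, vessel, lens, red cell and lymphoid lists. No doublet caller was run, and barcodes in the top 5% of UMIs were left out as an alternative. Counts of replicates of a day differed by more than counting noise (chi-square per degree of freedom 3.04 to 9.44), so none was treated as the same library deposited again. Different cells of 1 pool would differ as well, so this does not show independent samples.

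UMI counts were summed per library (20443 to 277725 UMIs) and tested with edgeR 4.0.16 (R 4.3.3, filterByExpr on day, TMM, quasi-likelihood, all 9 libraries in 1 fit, Benjamini-Hochberg at 0.05), with DESeq2 1.42.0 as an alternative. The script was checked on simulated counts. Ratios of pooled UMIs have exact 95% binomial counting intervals, and a count of 0 was given a floor of 3 counts over the group. Intervals and floors cover counting error only. Shares are the exact expected share at 500 UMIs. Named genes are the 10 members, the genes of the other monocyte and oxidase lists past the threshold in at least 1 comparison, the 10 genes most like the members, and P2ry12, Siglech and H2-Aa. Genes named outside this rule were chosen after their values were seen. Some genes that the rule covers are not reported here. No genome sequence or protein table was used here.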

Additional observations from a re-analysis of the deposited data

How the results depend on the processing

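The number of listed genes called at day 7 compared with day 0 was 3 of 6 tested in the deposited counts (67 of all 2670 genes). It was 1 with barcodes found in 1 library alone, where 1 was testable (6 of all 176 genes). At day 20 compared with day 0 both gave 0, with 3 and 1 at an unadjusted p under 0.05. The call between day 20 and day 7 (1 gene, Lyz2) was lost, with 0 called, in the deposited counts, with the highest library at least 3 times the next, with barcodes of a single library, with all barcodes, with non-myeloid barcodes kept, without the top 5% of UMIs, with library totals and with every gene tested. Across such losses, the replicate block included, 0 to 4 listed genes had an unadjusted p under 0.05. Leaving out 1 library gave 4 to 6, 2 to 3 and 0 to 1 called listed genes in the 3 comparisons, of 6 to 8 tested. The fits with 6 at day 7 (without day 7 replicate 2 or day 20 replicate 1) included Clec12a, which the main fit did not test. Adgre1 between day 20 and day 7, at −0.0050, turned to 0.0091 in the deposited counts, 0.12 with library totals and 0.026 in the deposited counts with the replicate block, and ranged from −0.30 to 0.31 without 1 library (0.0064 without day 0 replicate 1, 0.0032 without day 0 replicate 2, 0.040 without day 7 replicate 1). The cause of these changes was not tested. Over all tested genes, calls in the 3 comparisons were 356, 36 and 69 of 1446 in the main fit. They were 67, 0 and 0 of 2670 in the deposited counts and 6, 0 and 0 of 176 with barcodes of a single library. With all barcodes they were 163, 32 and 3 of 2562, and with non-myeloid barcodes kept 183, 37 and 12 of 2103. Without the top 5% they were 224, 103 and 9 of 1161, and with every gene tested 260, 50 and 46 of 13015. The numbers of tested genes differ, so these counts are not directly comparable. With at least 100 detected genes per barcode, 57 were called at day 20. Leaving out 1 library gave 192 to 525, 19 to 56 and 14 to 116, of 1450 to 2182 tested genes. Of 199 alternative values of the 9 log2 changes that were called, 51 lost the call and 148 kept it. Of 194 values of the 9 changes that were not called, 7 turned sign and 0 gained a call. Of 180 shares, 52 moved by over 1 SD, 50 of them upwards.

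In the assigned counts, replicate numbers gave no clear pairing of libraries. Deviations of same-numbered libraries correlated between −0.06 and 0.14, those of other pairs between −0.13 and 0.11. Of 9 libraries, 3 correlated best with their own number. Whether same-numbered libraries shared a batch was not settled. With the replicate block, 4, 3 and 0 listed genes were called in the 3 comparisons (346 genes in place of 356 at day 7). In the deposited counts with the block, chosen after seeing the data, these were 3, 0 and 0. Of all 2670 genes there, 127, 22 and 0 were called with the block, and 67, 0 and 0 without it. Without the smallest library of each later day, also chosen after seeing the data, the called listed genes were 4, 3 and 1 (621, 48 and 127 of all genes). Ccr2, Mrc1, Lyz1 and Clec12a are limited by depth, since 3 UMIs are 147 CPM in day 7 replicate 3.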
